A study of Mus musculus with 4 samples.

Results

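The genes described here are 10 that let the liver sense foreign chemicals and run its cytochrome P450 enzymes: the receptor genes Nr1i2, Nr1i3, Rxra and Ahr, the electron carriers Por, Cyb5a and Cyb5r3, and the haem synthesis genes Alas1, Alad and Fech. They were chosen by symbol, for their roles, from the 33639 genes of the deposited tables, and all 10 were found there. Liver RNA of 4 male mice was sequenced, 1 mouse per genotype. The DKO mouse lacked Cyp27a1 and Cyp3a together, the Cyp27a1 KO mouse carried a global deletion of Cyp27a1, the Cyp3a KO mouse a global deletion labelled Cyp3a4, and the WT mouse neither deletion. The submitters use the human symbol Cyp3a4, whereas mice carry a family of Cyp3a genes, so the label Cyp3a KO of the library titles is used. All the mice ate standard chow and had no other treatment. The sources used here give no strain, age, method of deletion or hour of tissue collection. With 1 mouse per genotype no spread between animals could be measured, no test between genotypes was possible, and every difference reported is one between 4 livers.

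PXR (gene Nr1i2) and CAR (gene Nr1i3) are nuclear receptors that bind drugs, steroids and bile acids or respond to them. Each binds DNA as a pair with RXRα (gene Rxra) and switches on P450, transferase and transporter genes. AhR (gene Ahr) is a receptor of another family that pairs with ARNT and induces the Cyp1 genes. Microsomal P450 enzymes need a haem group, made by a pathway that starts with ALAS1 and ends with ferrochelatase, and electrons, delivered by P450 reductase (Por) and in part by cytochrome b5 (Cyb5a). PXR and CAR ligands are known to raise Alas1 and Por in liver.

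The libraries held 49745860 to 50378101 estimated counts, so that 1 count was worth 0.0185 to 0.0214 counts per 1000000 (CPM, scaled for library composition with TMM factors). Higher and lower calls needed a log2 fold (of CPM plus 0.5) of 1 or more in size, an average of 1 CPM or more across the libraries and a ratio of counts whose exact 95% interval left out 1. All intervals given are of this kind or, for a level, exact Poisson, and they cover counting error only. Of the 33639 genes, 11743 reached the mean CPM of 1 and are called measured, all 10 genes described here among them. The deposited transcripts per 1000000 (TPM), which allow for transcript length, moved the median measured gene by a log2 fold of 0.33 in DKO liver, 0.18 in Cyp27a1 KO liver and 0.09 in the Cyp3a KO against WT. By counts the same medians were -0.01, 0.00 and 0.01, and with scaling by library totals alone the DKO median was 0.17. Folds are therefore by counts unless TPM is named, and a TPM fold is read against those shifts. Cyp27a1 itself had 65.3 CPM in DKO liver, 57.6 CPM in Cyp27a1 KO liver, 727 CPM in Cyp3a KO liver and 746 CPM in WT liver. Cyp3a11, the most abundant Cyp3a gene of the WT library, had 4.76 CPM in DKO liver, 23706 CPM in Cyp27a1 KO liver, 0.160 CPM in Cyp3a KO liver and 8742 CPM in WT liver. All 10 hepatocyte markers were measured, with summed levels of 93798 CPM in DKO liver, 71006 CPM in Cyp27a1 KO liver and 76092 CPM in Cyp3a KO liver, against 114516 CPM in WT liver. Their median log2 folds against WT were -0.60, -0.35 and -0.36, with 10, 9 and 8 of the 10 below 0, and their part in the levels of the 10 genes described here was not tested. The summed Kupffer cell, endothelial, stellate and cholangiocyte markers lay between 31.3 and 490.4 CPM. Calls against WT were 2 lower of 10 hepatocyte markers in the DKO (Ttr and Serpina1c), 1 higher of 8 stellate markers in each of the other knockouts (Acta2), 1 lower of 4 cholangiocyte markers in the DKO and Cyp27a1 KO (Sox9), and 1 lower of 7 endothelial markers in the Cyp3a KO (Lyve1). In whole liver RNA, fewer cells of a type and less RNA per cell cannot be told apart.

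The genes behaved in 3 ways. The nuclear receptor genes Nr1i2, Nr1i3 and Rxra stood within 1.25-fold over the 4 livers. Ahr was graded, with the highest level in DKO liver and the lowest in WT. The electron carrier and haem synthesis genes lay between these, 1.31-fold to 1.94-fold from the lowest to the highest library, all under the 2-fold rule. Over all measured genes the median fold from the lowest to the highest library was 1.37. By CPM the DKO held the highest level of 7 of the 10 genes, against 30.2% of all measured genes, and WT the lowest of 6 of the 10, against 29.1%. By TPM the DKO was highest for 10 of 10, but it was also highest for 57.5% of all measured genes.

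**Figure D1:**
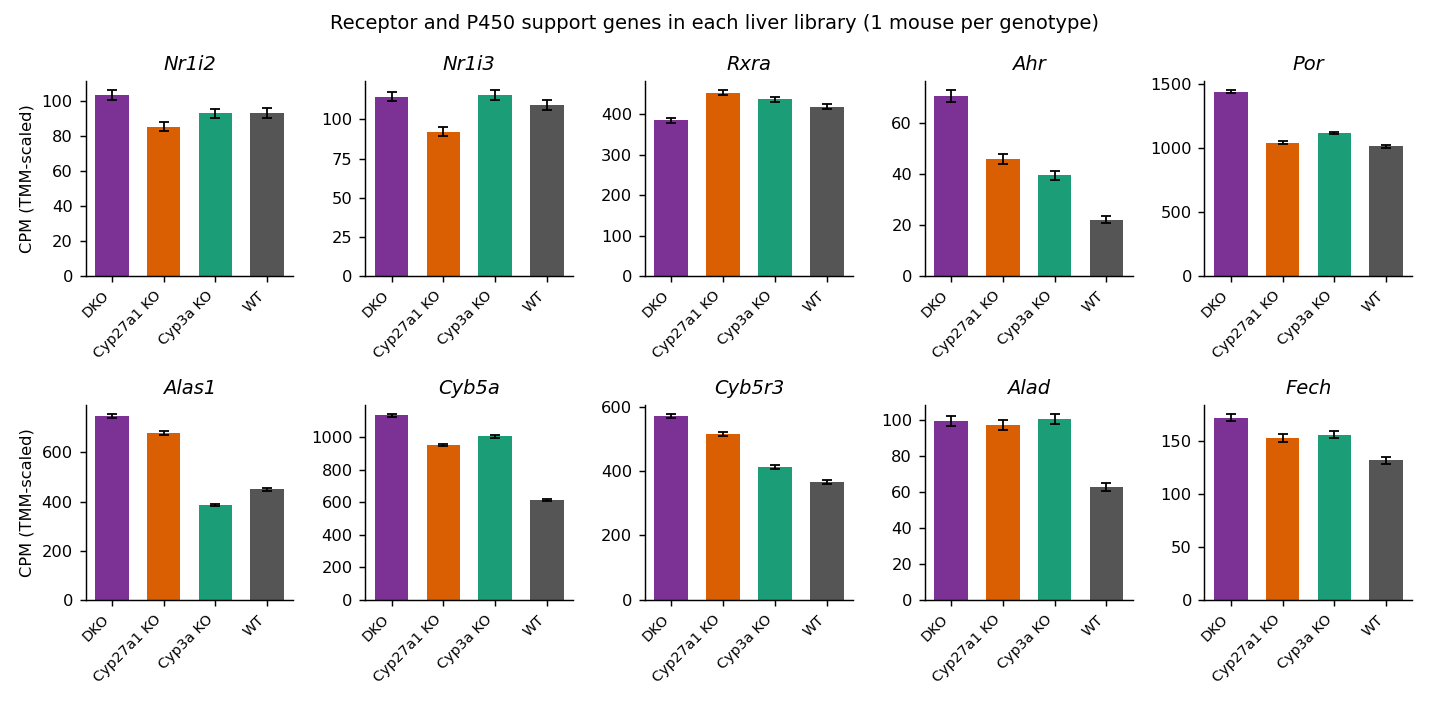
Level of each of the 10 genes in the 4 liver libraries, in TMM-scaled CPM with exact 95% Poisson intervals of the count; each bar is 1 mouse and each panel has its own axis from 0. Ahr stands at 70.4 CPM in DKO liver, against 22.1 CPM in WT liver, while Nr1i2, Nr1i3 and Rxra differ by at most 1.25-fold.

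Against WT, 1 of the 10 genes was called higher in DKO liver (Ahr), where 6.0% of all measured genes were called higher. In the Cyp27a1 KO 1 of the 10 was called higher, again Ahr, where 2.44% of all measured genes were. In the Cyp3a KO 0 of the 10 were called higher, where 2.56% of all measured genes were. Of the 10, 0 were called lower in these comparisons, whose background shares of lower calls were 4.02%, 1.36% and 1.86%. The median log2 fold over the 10 genes was 0.57 in DKO liver, 0.35 in Cyp27a1 KO liver and 0.16 in Cyp3a KO liver. By TPM recentred on the median measured gene these medians were 0.62, 0.38 and 0.20. The 3 comparisons use the same WT library, so they are not independent of each other.

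**Figure D2:**
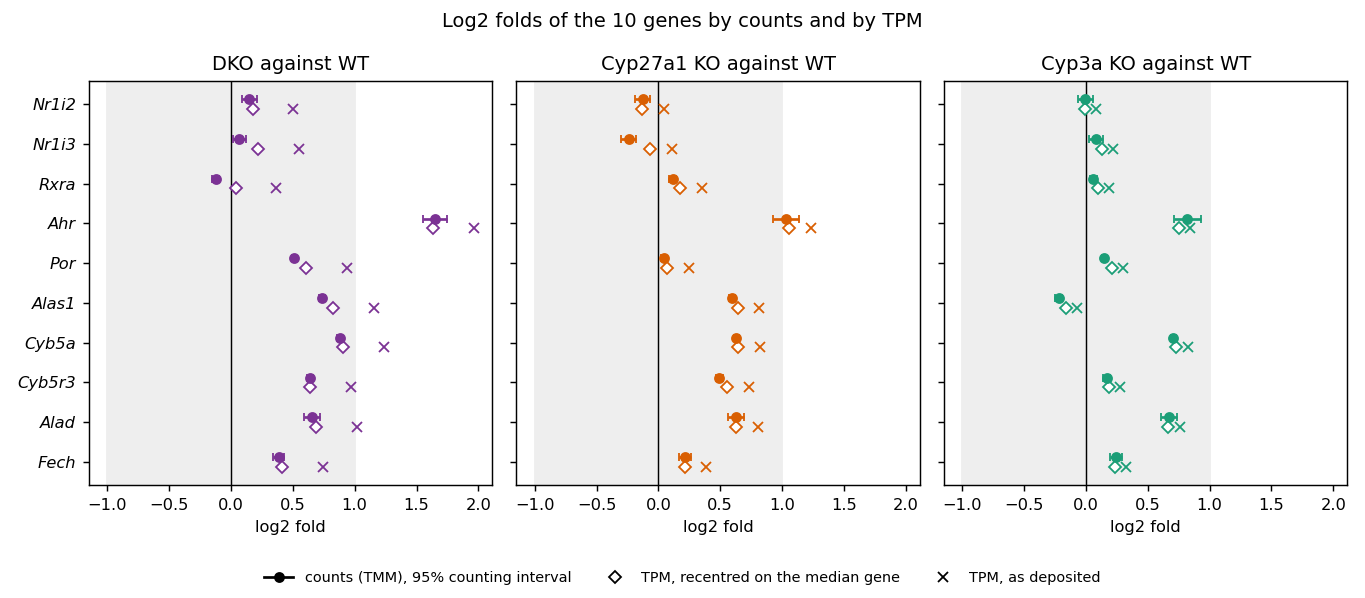
Log2 folds of the 10 genes against WT in DKO liver (left), the Cyp27a1 KO (middle) and the Cyp3a KO (right), by counts (filled circles, bars for the 95% counting interval), by TPM recentred on the median gene (open diamonds) and by TPM as deposited (crosses); the grey band marks folds under 2-fold. By counts Ahr leaves the band in DKO liver (1.65) and at its edge in Cyp27a1 KO liver (1.03), and no other gene does.

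The receptor genes for PXR and CAR differed little between the livers. Nr1i2 (chr16:38248323-38294824, minus strand, mm10) had 103 CPM in DKO liver, 85.1 CPM in Cyp27a1 KO liver, 92.8 CPM in Cyp3a KO liver and 93.0 CPM in WT liver. The DKO was thus the highest and the Cyp27a1 KO the lowest, 1.21-fold apart, and 22.4% of measured genes had a smaller range. Against WT the ratio was 1.11 in DKO liver (1.07 to 1.16), 0.915 in Cyp27a1 KO liver (0.877 to 0.955) and 0.998 in Cyp3a KO liver (0.957 to 1.04). By TPM as deposited the log2 folds were 0.51, 0.05 and 0.08, which places the Cyp27a1 KO on the other side of WT, and after recentring they were 0.18, -0.13 and -0.01.

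Nr1i3 (chr1:171213970-171220701, plus strand) had 114 CPM in DKO liver, 92.2 CPM in Cyp27a1 KO liver, 116 CPM in Cyp3a KO liver and 109 CPM in WT liver. The Cyp27a1 KO again gave the lowest level, at a ratio of 0.845 to WT (0.812 to 0.880), while the DKO and Cyp3a KO ratios were 1.05 and 1.06. The low value in Cyp27a1 KO liver was not seen by TPM as deposited, where its log2 fold was 0.11, and was -0.07 after recentring. Nr1i3 overlaps Tomm40l on the opposite strand over 4691 bases, and the counting is not stated to use strand, so reads of this pair may be shared. Tomm40l itself held 995 counts in DKO liver, 655 in Cyp27a1 KO liver, 824 in Cyp3a KO liver and 743 in WT, which is also lowest in Cyp27a1 KO liver.

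Rxra (chr2:27676440-27762957, plus strand), the common partner, had 385 CPM in DKO liver, 453 CPM in Cyp27a1 KO liver, 437 CPM in Cyp3a KO liver and 419 CPM in WT liver. Its order ran against that of Nr1i2, with the lowest level in DKO liver and the highest in Cyp27a1 KO liver. The DKO ratio to WT was 0.919 (0.901 to 0.937), a log2 fold of -0.12 by counts, but 0.37 by TPM, 0.04 by recentred TPM and 0.08 by library totals. On the per-length scale, Rxra TPM divided by the summed TPM of Nr1i2 and Nr1i3 was 0.864 in DKO liver, 1.17 in Cyp27a1 KO liver, 0.983 in Cyp3a KO liver and 0.969 in WT. The DKO liver therefore held the least partner transcript per PXR and CAR transcript, 0.864 against 0.969 in WT.

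The RefSeq promoter of Nr1i2 (GRCm38.p6, chr16:38294775-38295074, minus strand, 250 bases before to 50 after the start) is shown because the receptor hardly moved while its targets did. Capitals mark the matches to the motifs searched.

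Nr1i2: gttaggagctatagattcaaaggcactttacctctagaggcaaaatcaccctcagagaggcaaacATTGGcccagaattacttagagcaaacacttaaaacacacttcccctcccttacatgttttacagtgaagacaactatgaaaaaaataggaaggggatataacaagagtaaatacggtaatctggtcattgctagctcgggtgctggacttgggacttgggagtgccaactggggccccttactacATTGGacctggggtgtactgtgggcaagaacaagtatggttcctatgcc

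The motifs searched on both strands were GCGTG (the AhR core), CACGTG (E-box), AGGTCA and AGTTCA (nuclear receptor motifs), TTATGTAA and TTACGTAA (D-box), TGACGTCA (CRE), CCAAT and GGGCGG (GC box). In the Nr1i2 promoter the search found 2 matches to CCAAT, a motif held by 37.4% of the 32851 RefSeq promoters, and 0 matches to the others. The shares of all promoters with the other motifs were 32.4% for GCGTG, 7.15% for CACGTG, 16.3% for AGGTCA, 14.0% for AGTTCA, 0.938% and 0.119% for the D-box forms, 1.79% for CRE and 35.7% for GGGCGG. A match is a match of letters only and shows no binding.

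Most of the known targets of PXR and CAR were called higher in each knockout liver than in WT, next to receptor transcripts that were not called. Of 28 measured targets outside the Cyp3a family, 25 were called higher in DKO liver, 19 in Cyp27a1 KO liver and 17 in Cyp3a KO liver, and 0 were called lower. Their median log2 folds were 2.72, 1.46 and 1.43, and 3 of the 28 had folds below 0 in Cyp27a1 KO liver and 3 in Cyp3a KO liver. Over all measured genes, 6.0%, 2.44% and 2.56% were called higher in the same comparisons. The list was chosen with earlier results of these data known, so these counts are no independent evidence of direction. Gstm3, a glutathione transferase, had 7182 CPM in DKO liver, 1512 CPM in Cyp27a1 KO liver, 1504 CPM in Cyp3a KO liver and 51.3 CPM in WT liver. Gsta1, another glutathione transferase, had 384 CPM in DKO liver, 90.0 CPM in Cyp27a1 KO liver, 35.2 CPM in Cyp3a KO liver and 4.61 CPM in WT liver. Cyp2c55 had 1016 CPM in DKO liver, 243 CPM in Cyp27a1 KO liver, 455 CPM in Cyp3a KO liver and 9.37 CPM in WT liver. In these 3 genes the DKO was highest and WT lowest, with no knockout near WT. Cyp2b9 departed from that order, with 93.2 CPM in DKO liver, 0.10 CPM in Cyp27a1 KO liver, 0.0799 CPM in Cyp3a KO liver and 0.300 CPM in WT liver, so that it was called higher in DKO liver and not in the other knockouts. Reads of near-identical family members, such as the Cyp2b, Cyp2c, Gsta and Gstm genes, may have been split between them by the authors' counting.

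**Figure D3:**
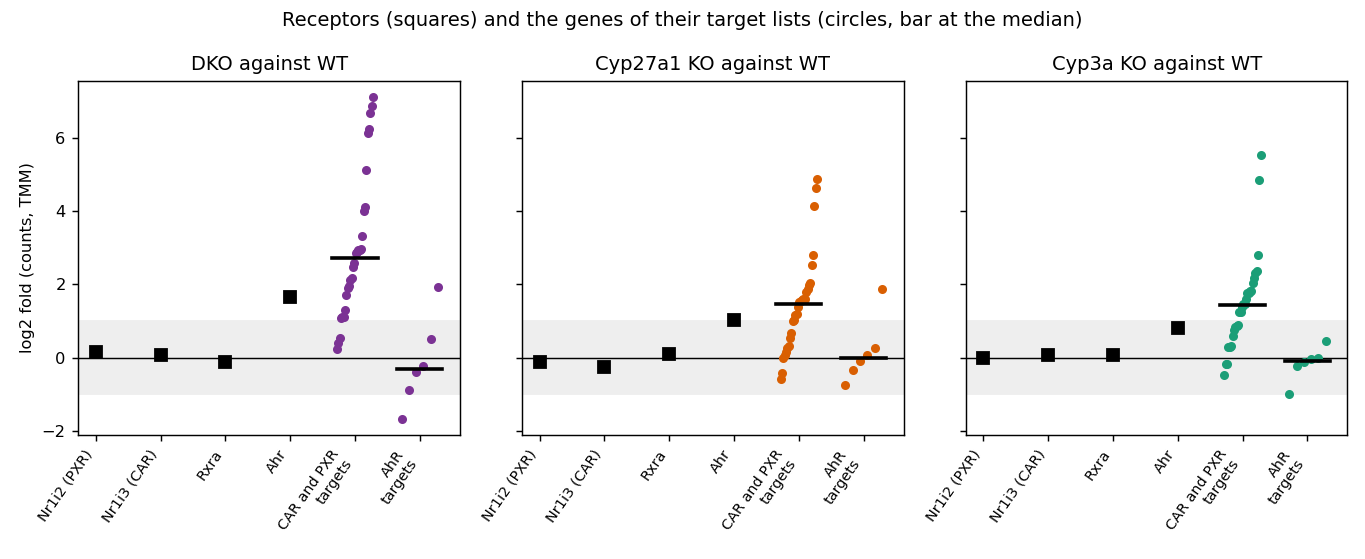
Log2 folds against WT, by counts, of the 4 receptor genes (squares), the 28 measured PXR and CAR targets and the 6 measured AhR targets (circles, bar at the median) in DKO liver (left), the Cyp27a1 KO (middle) and the Cyp3a KO (right); the grey band marks folds under 2-fold. The PXR and CAR targets have medians of 2.72, 1.46 and 1.43 while Nr1i2, Nr1i3 and Rxra lie near 0, and the AhR targets have medians of -0.30, -0.01 and -0.08 (by TPM, with 4 measured, 0.63, 0.43 and 0.06) while Ahr lies at 1.65, 1.03 and 0.82. The target lists were chosen with earlier results of these data known.

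The cofactors and upstream factors of PXR and CAR mostly stayed under the 2-fold rule. Of 17 measured, 0 were called in DKO liver, 1 was called lower in Cyp27a1 KO liver and 1 was called higher in Cyp3a KO liver. Both calls were of Nr0b2 (the lower one was lost by TPM as deposited), which encodes the corepressor SHP and had 24.3 CPM in DKO liver, 7.87 CPM in Cyp27a1 KO liver, 46.3 CPM in Cyp3a KO liver and 16.3 CPM in WT liver. Hnf4a, a hepatocyte factor that acts on the Nr1i2 and Nr1i3 genes, had 615 CPM in DKO liver, 814 CPM in Cyp27a1 KO liver, 726 CPM in Cyp3a KO liver and 1042 CPM in WT liver, lowest in DKO liver but not called. Foxo1 and Cebpb were not called either, with log2 folds in DKO liver of -0.88 and -0.84. Of 14 measured RXR paralogues and other partner receptors, 2 were called higher in DKO liver, 1 in Cyp27a1 KO liver and 1 in Cyp3a KO liver. Pparg, the fat-storage receptor, was called in all 3, with 12.4 CPM in DKO liver, 10.6 CPM in Cyp27a1 KO liver, 7.61 CPM in Cyp3a KO liver and 2.51 CPM in WT liver. Rarb, a retinoic acid receptor, was called in DKO liver, with 8.27 CPM there, 2.79 CPM in Cyp27a1 KO liver, 1.92 CPM in Cyp3a KO liver and 1.42 CPM in WT liver. The uncalled Ppard and Nr4a1 had log2 folds of -0.75 and -0.07 in DKO liver.

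Ahr (chr12:35497974-35535038, minus strand) moved most of the 10 genes. It had 70.4 CPM in DKO liver, 45.7 CPM in Cyp27a1 KO liver, 39.4 CPM in Cyp3a KO liver and 22.1 CPM in WT liver, from 3813, 2274, 1973 and 1030 counts. The intervals of the 4 levels did not overlap, the nearest pair being 43.8 to 47.6 CPM in Cyp27a1 KO liver and 37.7 to 41.2 CPM in Cyp3a KO liver. Against WT the ratio was 3.19 in DKO liver (2.97 to 3.42), 2.07 in Cyp27a1 KO liver (1.92 to 2.23) and 1.78 in Cyp3a KO liver (1.65 to 1.93). Of all measured genes, 97.6%, 97.7% and 96.1% had a lower log2 fold in the same comparisons. The TPM table gave 20.1 TPM in DKO liver, 11.9 TPM in Cyp27a1 KO liver, 8.95 TPM in Cyp3a KO liver and 4.77 TPM in WT, in the same order. The Cyp27a1 KO value, a log2 fold of 1.03, sat at the edge of the rule and was not called with a pseudocount of 2. Of the 10 genes Ahr had the lowest level per length in every library, with 4.77 TPM in WT next to 44.8 TPM for Nr1i2 and 1663 TPM for Cyb5a.

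The targets of AhR were mostly not called beside the receptor transcript. Of 6 measured, 1 was called higher and 1 lower in DKO liver, 1 was called higher in Cyp27a1 KO liver and 0 were called in Cyp3a KO liver. Their median log2 folds were -0.30, -0.01 and -0.08 by counts, but by TPM, where 4 were measured, they were 0.63, 0.43 and 0.06 as deposited and 0.30, 0.26 and -0.03 after recentring. Cyp1a2, a textbook AhR target of liver, had 459.9 CPM in DKO liver, 499 CPM in Cyp27a1 KO liver, 534 CPM in Cyp3a KO liver and 534 CPM in WT liver. Cyp1a1, the most inducible of them, had 1.24 CPM in DKO liver, 0.863 CPM in Cyp27a1 KO liver, 1.72 CPM in Cyp3a KO liver and 1.78 CPM in WT liver, from 43 to 86 counts. Cyp1b1 had 0.720 CPM in DKO liver, 1.28 CPM in Cyp27a1 KO liver, 0.639 CPM in Cyp3a KO liver and 1.76 CPM in WT liver. Of these 3 Cyp1 genes, none was higher in a knockout than in WT beyond counting error. The gene called higher was Nqo1, a quinone reductase that is also a target of NRF2, with 10.3 CPM in DKO liver, 9.78 CPM in Cyp27a1 KO liver, 3.34 CPM in Cyp3a KO liver and 2.32 CPM in WT liver. The gene called lower was Ugt1a6a, a glucuronosyltransferase that shares exons with the other Ugt1a genes, with 35.2 CPM in DKO liver, 135 CPM in Cyp27a1 KO liver, 103 CPM in Cyp3a KO liver and 113 CPM in WT liver. Tiparp, a direct AhR target, had 10.1 CPM in DKO liver, 7.41 CPM in Cyp27a1 KO liver, 5.87 CPM in Cyp3a KO liver and 6.95 CPM in WT and was not called; it and Cyp1a2 are outside the rule for named genes and were chosen after their values were seen.

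Of 5 measured partners of AhR, 0 were called in any comparison with WT. Arnt, the DNA-binding partner, had 32.8 CPM in DKO liver, 28.4 CPM in Cyp27a1 KO liver, 22.0 CPM in Cyp3a KO liver and 24.1 CPM in WT liver. The chaperone genes Hsp90aa1 and Hsp90ab1, whose proteins hold AhR in the cytosol, were highest in Cyp27a1 KO liver, with log2 folds of 0.78 and 0.77 against WT, and Ptges3, the co-chaperone p23, had 0.28 there. Macrophages and endothelium also express Ahr. The summed Kupffer cell markers were 490.4 CPM in DKO liver, 336 CPM in Cyp27a1 KO liver, 208 CPM in Cyp3a KO liver and 310.0 CPM in WT liver, with 10 of 10 markers in the table and none at 0, and 2 of 10 were called higher in DKO liver (Cd5l and Adgre1) and 1 lower in Cyp3a KO liver (Marco). Of the 10 Kupffer cell markers, 10 were above WT in DKO liver, where Ahr was highest, 7 in Cyp27a1 KO liver and 0 in Cyp3a KO liver. Their median log2 folds were 0.62, 0.12 and -0.62. In the Cyp3a KO the Kupffer cell sum was below WT while Ahr was 1.78-fold higher. The summed endothelial markers were 222 CPM in DKO liver, 206 CPM in Cyp27a1 KO liver, 194 CPM in Cyp3a KO liver and 249 CPM in WT liver, lower than WT in each library where Ahr was higher. The part of these cells in the Ahr levels was not tested further.

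The electron carrier genes were higher in DKO liver than in WT without reaching the 2-fold rule. Por (chr5:135670033-135735326, plus strand), the reductase that serves all microsomal P450 enzymes, had 1439 CPM in DKO liver, 1041 CPM in Cyp27a1 KO liver, 1117 CPM in Cyp3a KO liver and 1011 CPM in WT liver. The DKO stood apart, at a ratio of 1.42 to WT (1.41 to 1.44), and the other knockouts lay within 1.11-fold of WT. Its log2 fold in DKO liver, 0.51, was above that of 84.1% of measured genes, and 0.60 by recentred TPM. Cyb5a (chr18:84838704-84879871, plus strand), the microsomal cytochrome b5, had 1132 CPM in DKO liver, 951 CPM in Cyp27a1 KO liver, 1004 CPM in Cyp3a KO liver and 615 CPM in WT liver. Here WT stood apart, since all the knockouts were higher, at ratios of 1.84 (1.82 to 1.87), 1.55 (1.52 to 1.57) and 1.63 (1.61 to 1.66). Cyb5r3 (chr15:83153494-83172592, minus strand), the NADH reductase of cytochrome b5, had 572 CPM in DKO liver, 517 CPM in Cyp27a1 KO liver, 412 CPM in Cyp3a KO liver and 367 CPM in WT liver. Its levels split by Cyp27a1, with the DKO and Cyp27a1 KO at 1.56-fold (1.53 to 1.59) and 1.41-fold (1.38 to 1.44) of WT and the Cyp3a KO at 1.12-fold (1.1 to 1.15).

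The promoter of Por (chr5:135688895-135689194, plus strand, GRCm38.p6, inside the GENCODE span of the gene) is shown with its motif matches in capitals. It had 7 matches, as did the Alad window printed below, so their number does not set Por apart.

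Por: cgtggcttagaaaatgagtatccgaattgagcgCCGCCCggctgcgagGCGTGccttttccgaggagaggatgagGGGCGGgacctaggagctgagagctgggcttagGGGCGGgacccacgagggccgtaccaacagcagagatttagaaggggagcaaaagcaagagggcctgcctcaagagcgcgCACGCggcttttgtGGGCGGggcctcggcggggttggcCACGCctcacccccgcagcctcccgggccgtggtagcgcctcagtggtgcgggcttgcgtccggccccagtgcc

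It held 3 matches to GCGTG or its reverse complement and 4 to the GC box, and none of the matches overlapped. The other motifs were not found in these 300 bases.

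The remaining electron carriers and P450 chaperones gave 0 calls of 11 measured in each comparison with WT, with median log2 folds of 0.29 in DKO liver, 0.35 in Cyp27a1 KO liver and 0.21 in Cyp3a KO liver. Cyb5b, the outer mitochondrial cytochrome b5, had 412 CPM in DKO liver, 451 CPM in Cyp27a1 KO liver, 468 CPM in Cyp3a KO liver and 255 CPM in WT liver. Pgrmc1, a haem-binding protein that associates with P450 enzymes, had 1592 CPM in DKO liver, 1713 CPM in Cyp27a1 KO liver, 1527 CPM in Cyp3a KO liver and 1031 CPM in WT liver. In both, as in Cyb5a, WT was the lowest and the knockouts lay close together. The mitochondrial pair Fdx1 and Fdxr, which carry electrons to enzymes such as CYP27A1, had log2 folds of 0.62 and 0.67 in DKO liver, 0.35 and 0.72 in Cyp27a1 KO liver and 0.63 and 0.63 in Cyp3a KO liver.

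The P450 transcripts that these carriers serve were summed per length over 80 genes of families 1 to 4. The sum was 30888 TPM in DKO liver, 35262 TPM in Cyp27a1 KO liver, 21083 TPM in Cyp3a KO liver and 21090.3 TPM in WT. Without the Cyp3a genes it was 30879 TPM in DKO liver, 19898 TPM in Cyp27a1 KO liver, 21082 TPM in Cyp3a KO liver and 15902 TPM in WT. The DKO and Cyp27a1 KO sums differed in composition. Cyp3a11 made up 40.3% of the P450 sum in Cyp27a1 KO liver and 21.9% in WT, whereas Cyp2c29 (25.7%) and Cyp2a5 (22.6%) led in the DKO and Cyp2e1 (30.5%) in Cyp3a KO liver. By CPM, which does not allow for length, the DKO sum was 1.03-fold of WT in place of 1.46-fold.

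Set against that load, Por was 3.0 TPM per 100 P450 TPM in DKO liver, 1.63 in Cyp27a1 KO liver, 2.84 in Cyp3a KO liver and 2.30 in WT. The Cyp27a1 KO, with the largest P450 sum, had the least reductase transcript per P450 transcript. Cyp3a genes held 15365 TPM of that sum in Cyp27a1 KO liver and 5188 TPM in WT. In DKO liver and Cyp3a KO liver they held 9.46 and 1.22 TPM. With the Cyp3a genes left out of the sum, the Cyp27a1 KO was not the lowest for Por and the livers lay closer together. Cyb5a was 12.7 TPM per 100 P450 TPM in DKO liver, 8.31 in Cyp27a1 KO liver, 13.9 in Cyp3a KO liver and 7.88 in WT, so that the livers with the Cyp3a deletion had the higher ratios. That order also turned on the Cyp3a genes, since without them Cyb5a per P450 TPM was highest in Cyp27a1 KO liver. Cyb5r3 was 1.49 TPM per 100 P450 TPM in DKO liver, 1.11 in Cyp27a1 KO liver, 1.35 in Cyp3a KO liver and 1.12 in WT. Cytochrome b5 transcripts outnumbered those of the reductase in each library. Cyb5a TPM per Por TPM was 4.23 in DKO liver, 5.09 in Cyp27a1 KO liver, 4.92 in Cyp3a KO liver and 3.43 in WT.

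Por, Alas1 and many P450 genes are more abundant around the central vein of the lobule than around the portal vein. Of 10 pericentral markers, 1 was called higher (Oat) and 1 lower (Axin2) in DKO liver, 2 were called higher in Cyp27a1 KO liver (Oat and Rhbg) and 1 higher in Cyp3a KO liver (Oat). Of 10 periportal markers, 1 was called lower in DKO liver (Sds) and 0 in the other knockouts. Their median log2 folds against WT were -0.57 in DKO liver, -0.31 in Cyp27a1 KO liver and -0.31 in Cyp3a KO liver. In the same order, 9, 10 and 7 of the 10 had folds below 0. Summed, they were 14445 CPM in DKO liver, 14999 CPM in Cyp27a1 KO liver, 16698 CPM in Cyp3a KO liver and 17473 CPM in WT liver. The summed pericentral markers were 8194 CPM in DKO liver, 10291 CPM in Cyp27a1 KO liver, 11768 CPM in Cyp3a KO liver and 9324 CPM in WT liver. Most of each sum was Cyp2e1, itself a P450 gene. Without it, an alternative chosen after seeing the data, the sums were 3326 CPM in DKO liver, 3493 CPM in Cyp27a1 KO liver, 3195 CPM in Cyp3a KO liver and 2111 CPM in WT liver, so that the DKO was below WT with Cyp2e1 and above it without. Oat held 1883 CPM in DKO liver, 1988 CPM in Cyp27a1 KO liver and 1678 CPM in Cyp3a KO liver, against 572 CPM in WT. The pericentral markers other than Cyp2e1 and Oat together were not above WT in any knockout. The part of the pericentral and periportal markers in the levels of Por and Alas1 was not tested.

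**Figure D4:**
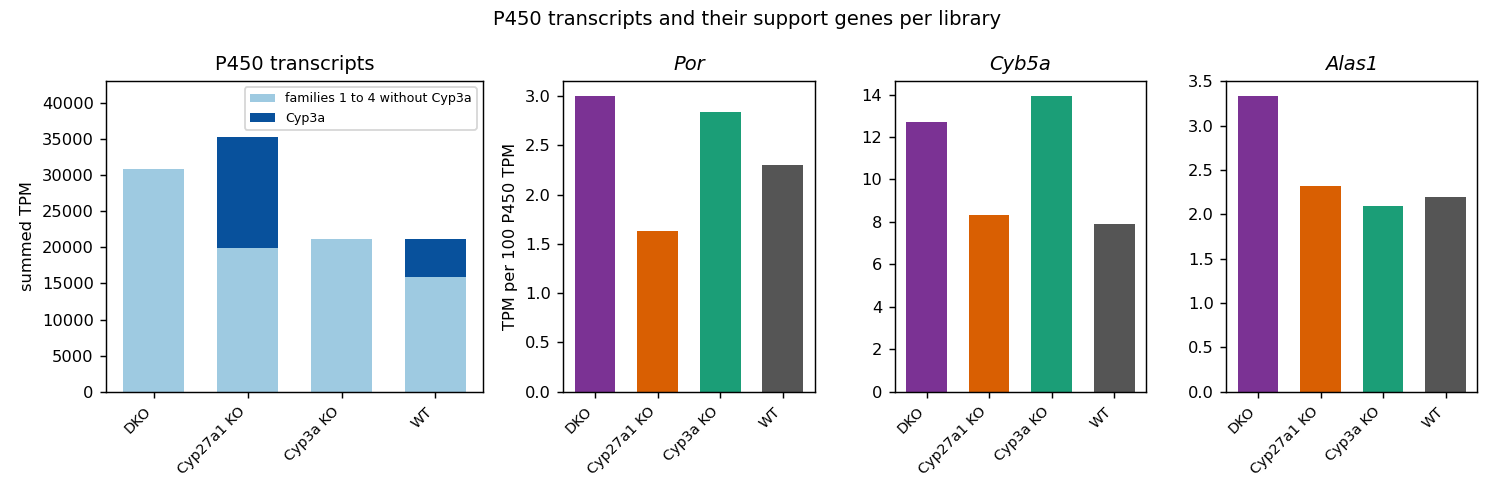
Left, summed TPM of 80 P450 genes of families 1 to 4, split into Cyp3a (dark) and the rest (light); other panels, TPM of Por, Cyb5a and Alas1 per 100 TPM of that sum; 1 library per bar, all axes from 0. Por per 100 P450 TPM is lowest in Cyp27a1 KO liver (1.63) and Alas1 highest in DKO liver (3.34). With the Cyp3a genes left out of the sum, Cyp27a1 KO liver is not lowest for Por and is highest for Alas1.

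Of the haem synthesis genes, Alas1 was higher in both livers without Cyp27a1, and Alad stood at nearly the same level in all the knockouts, above WT. Alas1 (chr9:106233455-106248654, minus strand), the rate-limiting enzyme of haem synthesis in liver, had 749 CPM in DKO liver, 679 CPM in Cyp27a1 KO liver, 386 CPM in Cyp3a KO liver and 449.96 CPM in WT liver. The livers without Cyp27a1 were high, at 1.66-fold (1.64 to 1.69) and 1.51-fold (1.48 to 1.53) of WT, and the Cyp3a KO was the lowest of all, at a ratio of 0.858 (0.841 to 0.875). Per 100 P450 TPM, Alas1 was 3.34 TPM in DKO liver, 2.32 in Cyp27a1 KO liver, 2.09 in Cyp3a KO liver and 2.20 in WT, highest in the DKO. With the Cyp3a genes left out of the P450 sum, it was highest in Cyp27a1 KO liver. Alad (chr4:62509169-62519918, minus strand), which joins the products of ALAS1, had 99.6 CPM in DKO liver, 97.6 CPM in Cyp27a1 KO liver, 101 CPM in Cyp3a KO liver and 63.0 CPM in WT liver. The knockouts lay between 97.6 and 101 CPM, each at 1.55-fold to 1.60-fold of WT. Fech (chr18:64452914-64490251, minus strand), which inserts iron into protoporphyrin, had 172 CPM in DKO liver, 153 CPM in Cyp27a1 KO liver, 156 CPM in Cyp3a KO liver and 131 CPM in WT liver. WT was again the lowest, with ratios of 1.31 (1.26 to 1.35) in DKO liver, 1.16 (1.12 to 1.20) in Cyp27a1 KO liver and 1.19 (1.15 to 1.23) in Cyp3a KO liver. Per length, the transcript of the first enzyme exceeded that of the last in every liver. Alas1 TPM per Fech TPM was 11.1 in DKO liver, 11.3 in Cyp27a1 KO liver, 6.35 in Cyp3a KO liver and 8.39 in WT.

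The promoters of Alas1 (chr9:106247905-106248204, minus strand) and Alad (chr4:62520014-62520313, minus strand), both GRCm38.p6, are set side by side because these neighbouring steps of 1 pathway followed different patterns. For each gene the RefSeq table lists a further start, whose window is not printed.

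Alas1: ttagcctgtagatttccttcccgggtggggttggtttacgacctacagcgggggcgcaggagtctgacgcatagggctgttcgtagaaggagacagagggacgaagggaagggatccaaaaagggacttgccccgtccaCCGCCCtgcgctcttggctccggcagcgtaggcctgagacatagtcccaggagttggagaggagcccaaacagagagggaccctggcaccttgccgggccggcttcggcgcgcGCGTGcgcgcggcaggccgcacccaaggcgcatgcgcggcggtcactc
Alad: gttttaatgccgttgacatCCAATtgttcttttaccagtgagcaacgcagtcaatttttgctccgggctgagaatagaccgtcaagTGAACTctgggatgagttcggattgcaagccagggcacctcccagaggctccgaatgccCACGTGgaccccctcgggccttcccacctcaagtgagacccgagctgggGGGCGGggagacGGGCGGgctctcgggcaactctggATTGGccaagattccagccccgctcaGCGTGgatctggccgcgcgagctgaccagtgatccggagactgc

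The Alas1 window held 1 match to GCGTG and 1 to the GC box. The Alad window held 1 match to GCGTG, 1 to CACGTG, 1 to AGTTCA, 2 to CCAAT and 2 to the GC box. None of the matches overlapped in either window.

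The other haem synthesis enzymes stayed under the 2-fold rule, apart from Alas2. Of 6 measured, 1 was called lower in DKO liver and 0 were called in the other comparisons with WT. Alas2, the erythroid form of the first enzyme, had 29.2 CPM in DKO liver, 146 CPM in Cyp27a1 KO liver, 103 CPM in Cyp3a KO liver and 87.7 CPM in WT liver, and was the gene called lower. Uros had 15.7 CPM in DKO liver, 13.7 CPM in Cyp27a1 KO liver, 15.0 CPM in Cyp3a KO liver and 9.22 CPM in WT liver, a pattern like that of Alad, and neither gene was called. Cpox had log2 folds of -0.46 in DKO liver, -0.34 in Cyp27a1 KO liver and -0.05 in Cyp3a KO liver. Red cell transcripts in the tissue carry haem synthesis genes too. The summed erythroid markers, with 8 of 9 in the table, were 280.0 CPM in DKO liver, 448 CPM in Cyp27a1 KO liver, 286 CPM in Cyp3a KO liver and 608 CPM in WT liver, highest in the library where Alad and Fech were lowest. Of the 5 measured, 4 were called lower in DKO liver, 1 in Cyp27a1 KO liver and 4 in Cyp3a KO liver. The globin genes Hbb-bs, Hbb-bt and Hba-a1 had log2 folds of -1.16, -1.25 and -0.76 in the DKO against WT. The part of red cell transcripts in the haem gene levels was not tested.

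Among 11 genes of haem precursor transport and ALAS1 turnover, 1 was called higher and 1 lower in DKO liver, 0 were called in Cyp27a1 KO liver and 1 was called higher in Cyp3a KO liver. Clpx, the mitochondrial unfoldase that with CLPP degrades ALAS1, had 76.4 CPM in DKO liver, 321 CPM in Cyp27a1 KO liver, 216 CPM in Cyp3a KO liver and 351 CPM in WT liver. It was called lower in DKO liver, at a log2 fold of -2.19, the largest in size of the haem genes listed here in the comparisons with WT. Slc25a37, mitoferrin-1, which imports iron into mitochondria, was called higher in DKO liver and the Cyp3a KO, with 64.8 CPM in DKO liver, 33.8 CPM in Cyp27a1 KO liver, 47.8 CPM in Cyp3a KO liver and 20.9 CPM in WT liver. Tspo, a mitochondrial membrane protein, had a log2 fold of -0.52 in DKO liver. Of 11 genes of haem breakdown, scavenging and export in the table, 1 was called lower in DKO liver, 0 in Cyp27a1 KO liver and 1 lower in Cyp3a KO liver. Hmox1, the inducible haem oxygenase, had 29.3 CPM in DKO liver, 22.4 CPM in Cyp27a1 KO liver, 13.5 CPM in Cyp3a KO liver and 31.4 CPM in WT liver. Cd163, the macrophage receptor for haemoglobin bound to haptoglobin, had 9.82 CPM in DKO liver, 15.3 CPM in Cyp27a1 KO liver, 15.9 CPM in Cyp3a KO liver and 29.9 CPM in WT liver. Slc48a1, a haem transporter, and Hp, haptoglobin, were not called, with log2 folds of 0.89 and -0.50 in DKO liver.

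**Figure D5:**
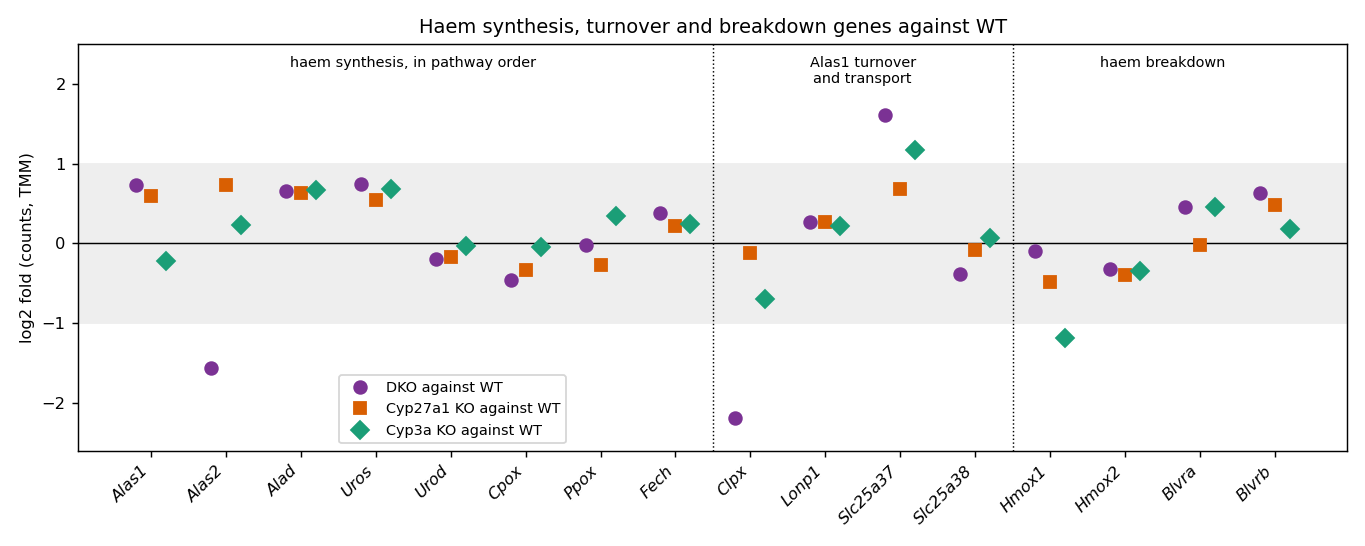
Log2 folds against WT, by counts, of haem synthesis genes in pathway order, of genes of ALAS1 turnover and mitochondrial transport, and of haem breakdown genes, in DKO liver (circles), the Cyp27a1 KO (squares) and the Cyp3a KO (diamonds); the grey band marks folds under 2-fold. Alas1, Alad and Fech stay inside the band, while Clpx (-2.19) and Alas2 (-1.57) lie below it in DKO liver and Slc25a37 (1.61) lies above it.

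The clock genes differed between the same livers, and Alas1, Por and Nr1i3 are known to cycle over the day in mouse liver. Of 18 clock genes, 6 were called higher and 4 lower in DKO liver, 1 higher and 1 lower in Cyp27a1 KO liver, and 4 higher and 3 lower in Cyp3a KO liver. Dbp, a clock output factor, had 50.03 CPM in DKO liver, 1.22 CPM in Cyp27a1 KO liver, 28.9 CPM in Cyp3a KO liver and 2.06 CPM in WT liver. Arntl, the core clock gene that peaks opposite to it, had 1.98 CPM in DKO liver, 28.9 CPM in Cyp27a1 KO liver, 10.6 CPM in Cyp3a KO liver and 29.6 CPM in WT liver. Nr1d1 and Nfil3 had log2 folds of 1.07 and -3.12 in DKO liver and 3.35 and -0.72 in Cyp3a KO liver. In Dbp and Arntl the DKO and Cyp3a KO livers therefore differed from the Cyp27a1 KO and WT livers. The DKO and Cyp3a KO also differed from each other, with 3 of the 18 clock genes called higher and 4 lower in the DKO. The part of these clock differences in the levels of the 10 genes was not tested. Alas1 was 1.51-fold of WT in Cyp27a1 KO liver, where Arntl stood at 28.9 CPM against 29.6 CPM in WT, and 0.858-fold in Cyp3a KO liver, where Arntl stood at 10.6 CPM. Arntl is 1 of the 18 clock genes. In Cyp27a1 KO liver 1 of them was called higher and 1 lower, and whether Alas1 followed them was not tested.

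Each deletion was present in a pair of comparisons with no library in common, which gives each gene 2 values per deletion. For loss of Cyp27a1, the Cyp27a1 KO against WT and the DKO against the Cyp3a KO gave Ahr log2 folds of 1.03 and 0.83 and Cyb5r3 log2 folds of 0.49 and 0.47. Alas1 gave 0.59 and 0.96, and 0.96 was the largest log2 fold of the 10 genes that was not called. For loss of Cyp3a, the Cyp3a KO against WT and the DKO against the Cyp27a1 KO gave Ahr log2 folds of 0.82 and 0.62 and Cyb5r3 log2 folds of 0.17 and 0.15. Ahr was thus higher with each deletion on either background, as were Por, Cyb5a, Cyb5r3 and Fech by smaller folds. Alas1 was higher with loss of Cyp27a1 on either background. Of the 10 genes, 0 were called in the DKO against the Cyp3a KO, where 4.02% of measured genes were called higher and 2.70% lower, and 0 in the DKO against the Cyp27a1 KO, where 2.84% were called higher and 2.59% lower.

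In Cyb5a and Alad a deletion added little once the other was present. Loss of Cyp27a1 gave Cyb5a log2 folds of 0.63 in the Cyp27a1 KO against WT and 0.17 in the DKO against the Cyp3a KO, and Alad log2 folds of 0.63 and -0.02 in the same comparisons. The DKO log2 fold minus the sum of the log2 folds of the other knockouts was -0.64 for Alad and -0.46 for Cyb5a, and 8.29% and 14.7% of measured genes had a lower such value. Por and Alas1 lay on the other side of the sum, at 0.32 and 0.36, Nr1i2 at 0.28 and Nr1i3 at 0.23. Rxra stood at -0.30, Ahr at -0.20, Fech at -0.07 and Cyb5r3 at -0.02. The median over the 10 genes was -0.05, next to -0.02 over all measured genes.

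The genes whose pattern over the 4 libraries was nearest to each of the 10 were found by the Euclidean distance between log2 CPM centred on the gene's mean. Nearest to Ahr were Myh14, Tm7sf2 and Zcchc11, at distances of 0.0862, 0.109 and 0.131, and Tm7sf2 had 401 CPM in DKO liver, 258 CPM in Cyp27a1 KO liver, 207 CPM in Cyp3a KO liver and 129 CPM in WT liver. Near to Alas1 were Zfp966 (0.0654) and Klra2 (0.0895). Blvrb, Bloc1s5 and Uprt were nearest to Cyb5r3, Tlcd2, Tbc1d31 and Fam219b to Cyb5a, and Tmem214, Smad2 and Lclat1 to Por. Alad had Sema4g and Adcy9, and Fech had Ssr3, Cep135 and Flii. Nr1i2 had Uroc1, Rgl2 and Cog7, Nr1i3 had Hn1, Pld2 and Ccnd2, and Rxra had March8, Ufc1 and Hspbp1. With 4 libraries such distances describe likeness in these livers only.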

How the data were processed

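For each gene symbol the authors deposited an estimated count, 57.7% of the values being whole, and a TPM, scaled to 1000000 per library. Tools named in the submitters' processing notes are HISAT2 2.0.5, kallisto 0.43.1 and Trimmomatic 0.33, with the build mm10; which tool made each table, and whether counting used strand, is not given in the sources used here. Liver RNA was extracted with a Qiagen kit for TruSeq RNA libraries, per the labels' protocols. Columns were matched to mice by name, with 0 columns left over, and 1 row that names no gene, holding 0 counts, was left out. Estimated counts were rounded and scaled with TMM factors (edgeR 4.0.16, R 4.3.3) of 1.08 in DKO liver, 0.996 in Cyp27a1 KO liver, 0.994 in Cyp3a KO liver and 0.937 in WT. With 1 library per genotype no count model was fitted and no p-value is given. Folds, exact Clopper-Pearson intervals of count ratios and exact Poisson intervals were computed in Python 3.11.15 (numpy 2.4.6, scipy 1.17.1, pandas 2.3.3). The intervals cover counting error only, since each genotype has 1 mouse. The reads also lacked molecular identifiers. Coordinates are from GENCODE M21 (GRCm38, the mm10 build), matched by symbol for 10 of 10 genes, and promoters from the RefSeq tables (GRCm38.p6), used for Nr1i2, Nr1i3, Rxra, Por, Alas1 and Alad.

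The 10 genes, the 18 other gene lists, the motifs and the rules were chosen with earlier results of these data known, so the PXR and CAR targets are no independent evidence of direction. Named genes are the 10, up to 4 measured genes per list with the largest log2 fold in size in any comparison with WT, and the 3 genes nearest to each of the 10, passing over predicted genes; genes outside the rule are said to be so or stand only in figures. A few genes that the rule names are not reported here. The calling rule was tested on simulated counts with set folds and counting error only, so that test says nothing about differences between animals. The alternatives tried were scaling by library totals or by median of ratios (DESeq2 1.42.0), TPM in place of counts, a mean CPM of 5 or no filter, pseudocounts of 0.1 and 2, a 1.5-fold rule and calls without the counting interval. Further ones, chosen after seeing the data, centred the TPM folds on their median gene and summed the pericentral markers without Cyp2e1.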

Additional observations from a re-analysis of the deposited data

Results flagged for a closer look

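Nr1i2, Rxra and Alas1 had log2 folds of opposite sign, each beyond counting error, when the same deletion was compared on either background, Rxra for both deletions, Nr1i2 for loss of Cyp27a1 alone and Alas1 for loss of Cyp3a alone. Each background has 1 mouse per genotype, and the difference was not tested. For loss of Cyp27a1, Nr1i2 had a log2 fold of -0.13 in the Cyp27a1 KO against WT, but 0.15 in the DKO against the Cyp3a KO. By TPM as deposited these were 0.05 and 0.42, so the directions were not opposite there. By recentred TPM they were -0.13 and 0.19, again opposite. Rxra had 0.11 in the Cyp27a1 KO against WT and -0.18 in the DKO against the Cyp3a KO. For loss of Cyp3a it had 0.061 in the Cyp3a KO against WT and -0.24 in the DKO against the Cyp27a1 KO. By TPM as deposited the Rxra values were 0.35 and 0.18 for loss of Cyp27a1 and 0.18 and 0.02 for loss of Cyp3a. By recentred TPM they were 0.17 and -0.06 for loss of Cyp27a1 and 0.10 and -0.14 for loss of Cyp3a, again opposite. Alas1 had -0.22 in the Cyp3a KO against WT and 0.14 in the DKO against the Cyp27a1 KO, and its directions were opposite by TPM as well, at -0.07 and 0.34. All of these folds were below the 2-fold rule.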

How the results depend on the processing

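Ahr was called in the DKO against WT under all 9 alternatives and by recentred TPM, which was added after seeing the data. The number of the 10 genes called in the DKO against WT was 1, 2 with library-total scaling (Cyb5a added), 4 by TPM as deposited (Alas1, Cyb5a and Alad added) and 5 with the 1.5-fold rule (Cyb5r3 as well). In the Cyp27a1 KO against WT it was 1, 0 with a pseudocount of 2 and 4 with the 1.5-fold rule, and in the Cyp3a KO against WT 0 and, with the 1.5-fold rule, 3. In the DKO against the Cyp3a KO it was 0, 1 with library-total scaling (Alas1), 2 by TPM (Ahr and Alas1) and 2 with the 1.5-fold rule, and in the DKO against the Cyp27a1 KO 0 and, with the 1.5-fold rule, 1. Recentred TPM changed none of these counts. Calls over all measured genes were 2831 with the 1.5-fold rule and 769 with a mean CPM of 5 in the DKO against WT, in place of 1177; 1392 with the 1.5-fold rule and 293 with a pseudocount of 2 in the Cyp27a1 KO against WT, in place of 447; 1532 and 335 under the same pair of alternatives in the Cyp3a KO against WT, in place of 520; 1999 with the 1.5-fold rule and 504 with a mean CPM of 5 in the DKO against the Cyp3a KO, in place of 789; and 1703 and 407 in the DKO against the Cyp27a1 KO, in place of 637. The share of calls that were higher in the DKO against WT was 59.9%, 73.3% with library-total scaling and 82.7% by TPM; by TPM it was 77.6% in place of 64.2% in the Cyp27a1 KO against WT, 77.7% in place of 59.8% in the DKO against the Cyp3a KO and 65.6% in place of 52.3% in the DKO against the Cyp27a1 KO. Summed by CPM in place of TPM, the P450 ratio to WT was 1.03 in place of 1.46 in DKO liver and 0.865 in place of 0.9997 in Cyp3a KO liver, and without Cyp3a 1.45 in place of 1.94 in DKO liver and 1.08 in place of 1.25 in Cyp27a1 KO liver. The cause of these shifts was not tested. Among the 50 log2 folds of the 10 genes the sign changed, in uncalled values only, in 8 by TPM, 4 with library-total scaling, 3 by recentred TPM, 1 with median-of-ratios scaling and 0 with other pseudocounts, for Nr1i2, Nr1i3, Rxra or Alad. Depth limits the values of low genes, such as Cyp1a1 with 43 to 86 counts and Cyp2b9 with 5 in Cyp27a1 KO liver, 4 in Cyp3a KO liver and 14 in WT. No paired analysis was possible because each genotype has 1 library, and for the same reason no replicate could be left out.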
